A study of Mus musculus with 6 samples.

Results

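The myosin heavy chains are the motor proteins of muscle filaments and of the contractile actin network of other cells. The 8 genes described here are the listed heavy chain genes Myh6, Myh7, Myh7b, Myh3, Myh11, Myh9, Myh10 and Myh14, taken by symbol from a table of 43629 mouse genes. All 8 have a row in that table. Reads were counted in primary cardiomyocytes, the contracting cells of the heart, from ventricles of CD-1 mouse embryos at embryonic day 13.5. The ventricles of a litter were pooled, and the cells were cultured, given negative siRNA or DNMT1 siRNA, each at 12 nM, with Lipofectamine RNAiMAX, and collected 72 h later. Both treatments were followed by a magnetic sort for the surface protein VCAM1 before poly(A) RNA was sequenced. The DNMT1 siRNA is a pool of siRNAs against the maintenance DNA methyltransferase, the negative siRNA has no known mammalian target, and each treatment had 3 cultures. The labels do not say whether the cultures of a treatment came from separate litters, so the p-values measure only the spread between these samples.

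The titles of the treated samples name DNMT1 while their treatment tag names DNMT3a, and the titles were followed. Dnmt1 stood at 159, 127 and 133 CPM (counts per 1000000 reads of the scaled library) in negative siRNA replicates 1 to 3 and at 35.6, 36.2 and 30.7 CPM in DNMT1 siRNA replicates 1 to 3. It was at 24.5% of the negative siRNA mean in the DNMT1 siRNA cultures (log2 fold change -2.03, SE 0.11, edgeR adjusted p = 0.000192), while Dnmt3a was at 118% of it. Between 27852412 and 35896018 reads were counted on genes with negative siRNA and between 13739561 and 16186310 with DNMT1 siRNA. Uniquely mapped reads outside annotated exons made up 14.6% to 17.5% with negative siRNA and 24.4% to 32.0% with DNMT1 siRNA. Those that fell on more than 1 gene made up 3.58% to 3.65% with negative siRNA and 6.02% to 6.35% with DNMT1 siRNA. Of all alignments, 41.3% to 42.5% with negative siRNA and 48.3% to 52.95% with DNMT1 siRNA were not unique. The part of these uncounted reads in the values below was not tested. All 7 cardiomyocyte markers of a list were measured, at a summed 1238 to 1602 CPM with negative siRNA and 2545 to 3179 CPM with DNMT1 siRNA. The 8 fibroblast markers summed to 36080 to 55680 CPM and 27400 to 29240 CPM, so collagen and other matrix transcripts were abundant in the sorted cells of both treatments. In bulk RNA of the sorted cells, fewer cells of a type and less RNA per cell cannot be told apart. Negative siRNA replicate 2 stood apart from the other negative siRNA cultures in several heavy chains, and values with and without it are given below for the chains it moved most.

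A myosin molecule holds a pair of heavy chains, each with a motor head that splits ATP and pulls on actin, and light chains bound to the neck. Myh6 encodes the fast cardiac alpha chain and Myh7 the slower beta chain, which is also the chain of slow skeletal fibres. In mouse ventricle the beta chain is the main form before birth and the alpha chain after it, and thyroid hormone favours the alpha chain. Myh7b encodes a related slow chain, Myh3 the embryonic skeletal chain and Myh11 the smooth muscle chain. Myh9, Myh10 and Myh14 encode the nonmuscle chains IIA, IIB and IIC, which serve cell shape, adhesion and division. The question here was which heavy chain transcripts differed in level after DNMT1 siRNA, and whether the balance between the cardiac chains did.

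The cardiac chains lie side by side on the minus strand of chromosome 14 (GRCm38). Myh6 (ENSMUSG00000040752) spans chr14:54941921-54966927 and Myh7 (ENSMUSG00000053093) spans chr14:54970684-54994626, with 3756 bases between them. Their coding sequences are near copies, with 91.5% of 5805 aligned bases identical and a longest identical run of 245 bases. The stretch of 75 bases, the length of 1 read, that differs most within a single exon of both genes is shown because it is where a read tells them best apart. It lies in exon 25 of transcript Myh6-201 (chr14:54952250-54952324) and in exon 27 of transcript Myh7-201 (chr14:54980325-54980399), it is read on the minus strand, and the capitals mark the 26 bases that differ.
Myh6: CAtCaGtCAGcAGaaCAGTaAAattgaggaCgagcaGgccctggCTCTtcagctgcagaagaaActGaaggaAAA
Myh7: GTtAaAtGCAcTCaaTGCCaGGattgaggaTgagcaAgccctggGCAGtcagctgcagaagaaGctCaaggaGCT
Of all 75-base words in the annotated Myh6 transcripts, 13.7% also occur in Myh7, and 10.6% of those of Myh7 occur in Myh6. Reads from such stretches cannot be assigned to either gene. Myh9 and Myh10 share 48 such words, and Myh7b, Myh11 and Myh14 share none with any gene.

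The sequence just before the RefSeq start site of each cardiac chain is shown because DNMT1 acts on cytosines followed by guanine (CpG), which are in capitals. The Myh6 stretch has 216 bases (chr14:54966642-54966857, minus strand, from 250 to 35 bases before the RefSeq start) and holds 2 CpG. It ends where an annotated exon begins. It also lies inside the Myh6 span given above, so an annotated start lies farther upstream, at chr14:54966927. The Myh7 stretch has 250 bases (chr14:54994627-54994876, minus strand) and holds 5 CpG.
Myh6: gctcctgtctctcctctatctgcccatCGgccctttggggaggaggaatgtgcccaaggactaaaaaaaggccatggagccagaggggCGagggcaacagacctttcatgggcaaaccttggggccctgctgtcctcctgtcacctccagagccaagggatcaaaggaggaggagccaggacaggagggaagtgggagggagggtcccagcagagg
Myh7: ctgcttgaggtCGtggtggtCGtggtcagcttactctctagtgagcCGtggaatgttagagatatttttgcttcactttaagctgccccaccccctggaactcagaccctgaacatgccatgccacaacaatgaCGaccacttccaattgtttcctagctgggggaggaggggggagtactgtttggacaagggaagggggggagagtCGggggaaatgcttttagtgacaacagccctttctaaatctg
Both come from RefSeq on GRCm38.p6, which matched 7 of the 8 heavy chains. In the 300 bases around the start that RefSeq gives, of which the 250 before it were searched, the nonmuscle chains had more CpG (14 for Myh9, 15 for Myh10 and 14 for Myh14) than Myh7b with 3 and Myh3 with 4. A further Myh7 start had 2. The median of 32851 promoters was 6 CpG, and 92.1% held at least 1 CpG on either strand. The letters TATAAA, searched on both strands, were found before Myh3 and Myh9 and in 12.4% of all promoters. The letters CATTCC, the core bound by TEAD factors, were found on either strand before Myh6, the first Myh7 start and Myh10, and in 12.6% of all promoters. DNA methylation was not analysed here.

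Myh6 was higher with DNMT1 siRNA. It stood at 547, 798.5 and 891 CPM in negative siRNA replicates 1 to 3 and at 2198, 2039 and 1692 CPM in DNMT1 siRNA replicates 1 to 3. Every DNMT1 siRNA culture lay above every negative siRNA culture, and the lowest of the former was above the highest of the latter by a wide margin. The fold change was 2.65 (log2 1.41, SE 0.18, 95% interval 1.00 to 1.82, edgeR adjusted p = 0.00316). Genes were called at an adjusted p (FDR) below 0.05 and a fold change above 1.5, and by this rule 4.26% of 15470 tested genes were called higher and 2.23% lower, or 6.49% in all. Of the 8 heavy chains 7 passed the filter on low counts, 1 was called higher, 0 were called lower and 6 were not called. At an unadjusted p below 0.05 in edgeR 2 were higher and 1 lower, and DESeq2 and edgeR's exact test each called 2 higher and 0 lower. Their median log2 fold change was 0.20, and that of all tested genes was -0.00491.

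**Figure D1:**
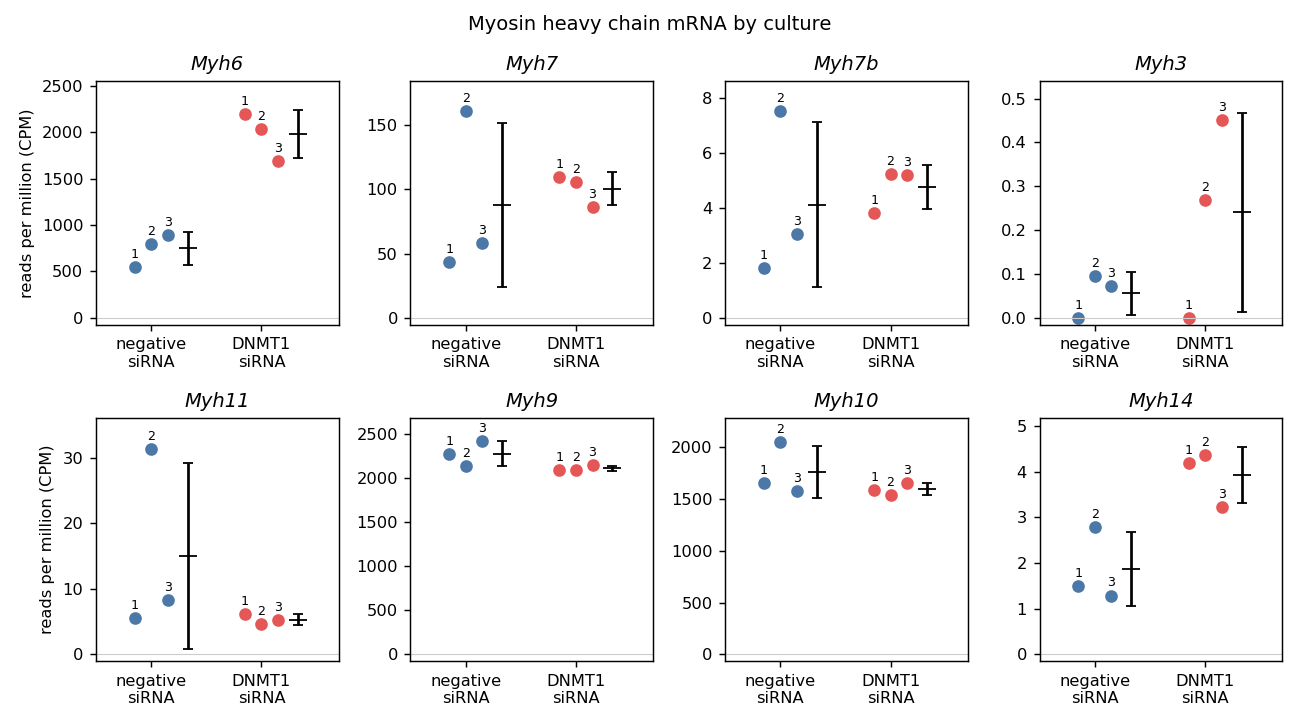
CPM (vertical axis from 0) of each of the 8 heavy chains in the 3 negative siRNA cultures (blue) and the 3 DNMT1 siRNA cultures (red). Small digits give the replicate and black bars the mean ± SD; Myh6 is separated between treatments, while Myh7, Myh7b and Myh11 are highest in negative siRNA replicate 2.

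Myh7 had 43.5, 161 and 58.3 CPM with negative siRNA and 110, 106 and 86.3 CPM with DNMT1 siRNA. Negative siRNA replicate 2 was above all other cultures, and the remaining negative siRNA cultures were below all DNMT1 siRNA cultures. The treatments therefore overlapped, and Myh7 was not called (log2 fold change 0.20, SE 0.42, 95% interval -0.76 to 1.17, edgeR adjusted p = 0.787). Without negative siRNA replicate 2 the log2 fold change was 0.99 (SE 0.14, edgeR adjusted p = 0.00194), a fold change of 1.98, and Myh7 was called higher. In that fit 5.42% of the tested genes were called higher and 2.78% lower. Replicate 2 was the highest culture, so leaving it out had to raise the fold change. Without negative siRNA replicate 1 or 3 instead, it was -0.12 or -0.02 and Myh7 was not called.

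Myh7b (ENSMUSG00000074652, chr2:155611212-155634307, plus strand) followed the same order at a much lower count. It had 1.80, 7.52 and 3.04 CPM with negative siRNA and 3.83, 5.24 and 5.20 CPM with DNMT1 siRNA, from 62 to 237 reads per culture. Negative siRNA replicate 2 was again the highest of all cultures and the other negative siRNA cultures the lowest. The gene was not called with all cultures (log2 fold change 0.21, SE 0.47, 95% interval -0.86 to 1.28, edgeR adjusted p = 0.805) and was called higher without negative siRNA replicate 2 (0.99, edgeR adjusted p = 0.0347). Without negative siRNA replicate 1 or 3 its log2 fold change was -0.16 or 0.04, and it was not called.

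**Figure D2:**
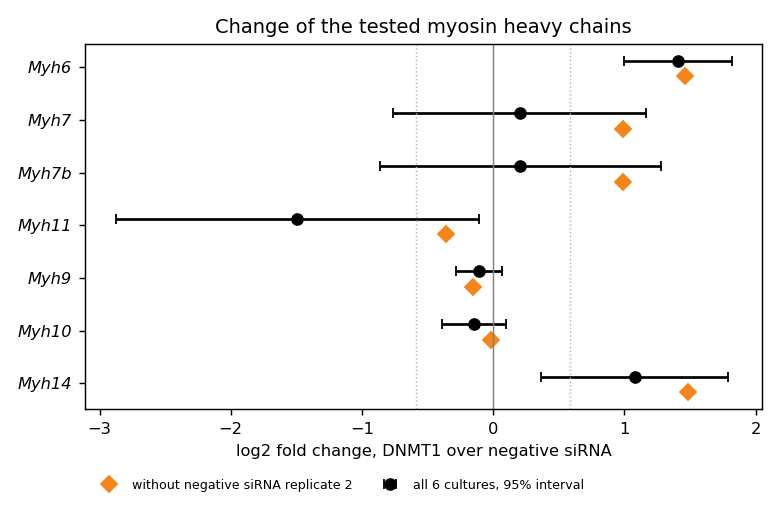
Log2 fold change (horizontal axis) of the 7 tested heavy chains, DNMT1 siRNA over negative siRNA. Black points and bars are the estimate from 6 cultures with its 95% interval, orange diamonds the estimate without negative siRNA replicate 2, and dotted lines a fold change of 1.5 either way; Myh7 and Myh7b move from 0.20 and 0.21 to 0.99 and 0.99. Fits that leave out another culture are not drawn.

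The ratio of Myh6 to Myh7, in reads per base of annotated exon (6726 and 8616 bases), was 16.1, 6.35 and 19.6 in negative siRNA replicates 1 to 3. It was 25.6, 24.7 and 25.1 in DNMT1 siRNA replicates 1 to 3. All DNMT1 siRNA cultures were above all negative siRNA cultures and lay close together, whereas the negative siRNA cultures were spread. The mean ± SD of 3 cultures was 14.0 ± 6.85 with negative siRNA, against 25.1 ± 0.468 with DNMT1 siRNA. On the log2 scale the means were 3.66 ± 0.87 and 4.65 ± 0.03, a difference of 0.9955 (1.99-fold; two-sided exact permutation test, p = 0.1, the smallest that 3 cultures against 3 allow). Without negative siRNA replicate 2 the difference was 0.50, or 1.42-fold. Myh7 accounted for 5.85%, 13.6% and 4.87% of the summed cardiac pair with negative siRNA and for 3.76%, 3.90% and 3.83% with DNMT1 siRNA. Myh6 was thus the major of the pair in each of the 6 cultures.

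**Figure D3:**
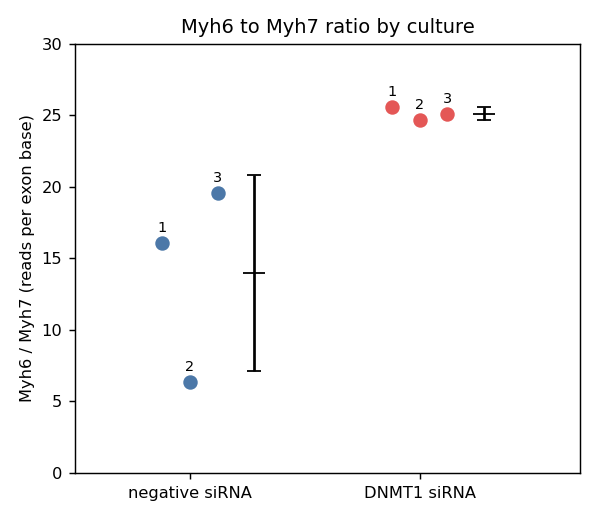
Ratio of Myh6 to Myh7 in reads per exon base (vertical axis from 0) in each of the 6 cultures, with the mean ± SD of each treatment in black. DNMT1 siRNA cultures lie between 24.7 and 25.6, and negative siRNA replicate 2, at 6.35, is the lowest.

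The genes most like Myh6 and Myh7 across cultures differed. By Pearson correlation of log2 CPM over the 6 cultures, among 9909 genes with a mean log2 CPM above 3, the 5 nearest to Myh6 were Pak6 (0.996), Ryr2 (0.996), Furin (0.995), Cmya5 (0.995) and Fam184a (0.995). Ryr2, the calcium release channel of the sarcoplasmic reticulum, had 48.4, 76.3 and 76.7 CPM with negative siRNA and 215.5, 212 and 185 CPM with DNMT1 siRNA. The 5 nearest to Myh7 were Hdac6 (0.991), Des (0.988), Glrx3 (0.985), Gpi1 (0.984) and Stk25 (0.983). Des, which encodes the muscle intermediate filament protein desmin, had 187, 417 and 204 CPM with negative siRNA and 322, 293 and 264 CPM with DNMT1 siRNA. As for Myh7, its highest value was in negative siRNA replicate 2. The 6 points share the grouping by treatment and, for Myh7, that culture, so these values only describe likeness.

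Myh3 and Myh11 are the chains of other muscle types. Myh3 (ENSMUSG00000020908, chr11:67078300-67102291, plus strand) had 0, 3 and 2 reads with negative siRNA and 0, 4 and 6 reads with DNMT1 siRNA, and was not tested. A difference in Myh3 was not detectable at this depth. Myh11 (ENSMUSG00000018830, chr16:14194535-14291372, minus strand) had 5.51, 31.3 and 8.24 CPM with negative siRNA and 6.11, 4.57 and 5.27 CPM with DNMT1 siRNA. Negative siRNA replicate 2 was far above the other 5 cultures, among which the treatments overlapped. The log2 fold change was -1.49 (SE 0.60, 95% interval -2.88 to -0.11, edgeR adjusted p = 0.145), and Myh11 was not called. Without negative siRNA replicate 2 it was -0.36 (edgeR adjusted p = 0.275).

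The spread within the negative siRNA cultures was unusual in these chains. The SD of log2 CPM among negative siRNA cultures was 0.99 for Myh7, 1.02 for Myh7b and 1.30 for Myh11, against a median of 0.17 over all tested genes. These values lay at the 98.4th, 98.6th and 99.5th percentile of all tested genes. Among DNMT1 siRNA cultures the SD was 0.19, 0.25 and 0.21, against a median of 0.10. Negative siRNA replicate 2 exceeded the other negative siRNA cultures 3.19-fold in Myh7, 3.13-fold in Myh7b and 4.61-fold in Myh11. The excess was 1.95-fold in Myh14, 1.27-fold in Myh10 and 1.14-fold in Myh6, and Myh9 was at 0.911-fold. In the same culture the summed smooth muscle markers were 1.43-fold and the summed fibroblast markers 1.498-fold those of the other negative siRNA cultures, with 5 of 6 and 6 of 8 markers highest there. The cardiomyocyte markers were 1.21-fold, with 5 of 7 highest there. Their part in the Myh7, Myh7b and Myh11 values was not tested.

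The abundant nonmuscle chains did not differ beyond the spread. Myh9 (ENSMUSG00000022443, chr15:77760587-77842175, minus strand) had 2276, 2142 and 2427 CPM with negative siRNA and 2094, 2098 and 2147 CPM with DNMT1 siRNA. The treatments overlapped by a narrow margin (log2 fold change -0.11, SE 0.08, 95% interval -0.29 to 0.06, edgeR adjusted p = 0.375). Myh10 (ENSMUSG00000020900, chr11:68691559-68816632, plus strand), the nonmuscle chain that heart muscle cells need for division, had 1658, 2052 and 1580 CPM with negative siRNA and 1585, 1543 and 1660 CPM with DNMT1 siRNA. Its treatments overlapped as well (log2 fold change -0.14, SE 0.11, 95% interval -0.39 to 0.10, edgeR adjusted p = 0.411). Both intervals lie within a fold change of 1.5 in either direction.

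Myh14 (ENSMUSG00000030739, chr7:44605803-44670843, minus strand) was the rare nonmuscle chain. It had 1.51, 2.79 and 1.29 CPM with negative siRNA and 4.20, 4.36 and 3.24 CPM with DNMT1 siRNA, from 36 to 88 reads per culture. Every DNMT1 siRNA culture was above every negative siRNA culture, which held for 18.3% of all tested genes, with 17.7% separated the other way. Myh6 and Myh14 were the 2 heavy chains so separated. The fold change was 2.11 (log2 1.08, SE 0.31, 95% interval 0.37 to 1.79), but the edgeR adjusted p was 0.0579 and Myh14 was not called. It was called without negative siRNA replicate 2 (log2 1.49, edgeR adjusted p = 0.00324) and also by DESeq2 (adjusted p = 0.0178). Replicate 2 was the highest negative siRNA culture, so leaving it out had to raise the fold change. Without negative siRNA replicate 1 (log2 0.94) or 3 (log2 0.88) Myh14 was not called by edgeR. Nor was it called without DNMT1 siRNA replicate 1, 2 or 3 (edgeR adjusted p = 0.171, 0.205 and 0.119).

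Levels were compared between genes as CPM per kilobase of exon. With negative siRNA the order was Myh9 at 177 ± 11.03, Myh10 at 169 ± 24.2 and Myh6 at 111 ± 26.4 (SD, n = 3), and Myh9 and Myh10 overlapped. Myh7 followed at 10.2 ± 7.42, Myh11 at 1.98 ± 1.87, Myh7b at 0.622 ± 0.454, Myh14 at 0.256 ± 0.112 and Myh3 at 0.00918, with overlap between Myh11 and Myh7b and between Myh7b and Myh14. With DNMT1 siRNA Myh6 led at 294 ± 38.4, above Myh9 at 163 ± 2.31 and Myh10 at 153 ± 5.66, with no overlap between these neighbours. Myh7 again followed at 11.7 ± 1.47, and Myh7b at 0.717 ± 0.121 and Myh11 at 0.6997 ± 0.102 overlapped. Myh14 at 0.541 ± 0.0835 and Myh3 at 0.0397 came last.

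The make-up of the heavy chain transcripts therefore differed between the treatments mainly through Myh6. Its share of the summed level per base was 19.3%, 23.5% and 27.6% with negative siRNA and 49.9%, 48.3% and 42.8% with DNMT1 siRNA. The mean share was 23.5% ± 4.17 and 47.0% ± 3.75 (SD, n = 3; exact permutation test, p = 0.1, adjusted p = 0.2 over 8 shares). The share of Myh9 was 37.9% ± 4.58 and 26.3% ± 1.79, and that of Myh10 was 36.0% ± 3.93 and 24.5% ± 2.11. Neither overlapped between treatments, although the levels of both did. Shares of a fixed total must fall where another rises. The lower Myh9, Myh10 and nonmuscle shares therefore largely restate the higher Myh6 level (log2 fold changes in CPM -0.11 for Myh9 and -0.14 for Myh10). The share of Myh7 was 2.10% ± 1.39 and 1.87% ± 0.146. The cardiac chains Myh6, Myh7 and Myh7b together held 25.7% ± 4.55 and 49.0% ± 3.87, and the nonmuscle chains 73.9% ± 4.70 and 50.9% ± 3.86. The sum of the 8 chains was 422, 505 and 480 CPM per kilobase with negative siRNA and 655, 627 and 588 with DNMT1 siRNA, a ratio of means of 1.33 (exact permutation test, p = 0.1).

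**Figure D4:**
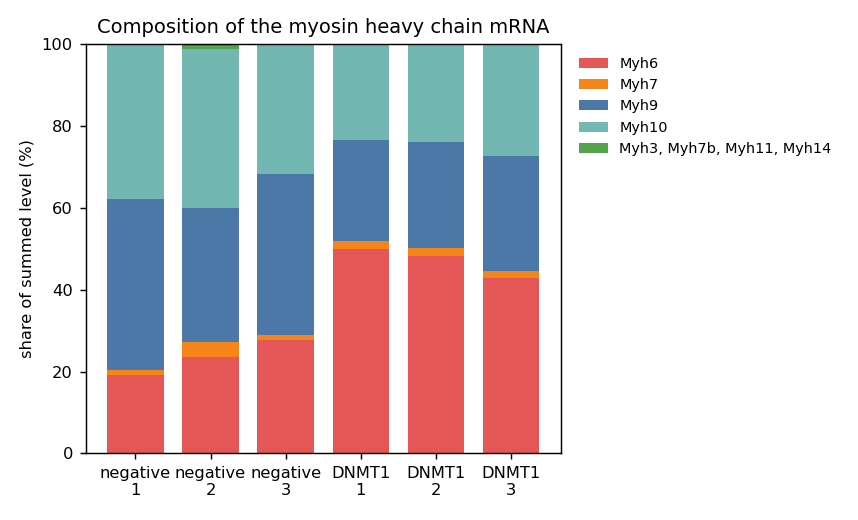
Share (%) of each heavy chain in the summed level per exon base in each of the 6 cultures, stacked to 100, with the 4 rare chains drawn together. Myh6 takes 19.3% to 27.6% with negative siRNA and 42.8% to 49.9% with DNMT1 siRNA.

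Cardiomyocyte markers moved with Myh6. Of 7 markers 6 were called higher and 0 lower, with a median log2 fold change of 1.12. Ryr2 had a log2 fold change of 1.61, the cardiac actin Actc1 1.54, the Z-disc protein Actn2 1.25 and the troponin Tnnt2 0.61, while Tnni1 was not called (-0.18). Their sum was 1418 ± 182 CPM with negative siRNA and 2880 ± 318 CPM with DNMT1 siRNA, a ratio of 2.03 (exact permutation test, p = 0.1). Myh6 was 38.6%, 49.9% and 72.0% of that sum with negative siRNA and 69.1%, 69.9% and 66.5% with DNMT1 siRNA. On this scale the treatments overlapped (log2 difference 0.40, exact permutation test, p = 0.4). Myh7 was 3.07%, 10.05% and 4.71% with negative siRNA and 3.46%, 3.63% and 3.39% with DNMT1 siRNA, and overlapped too. Myh9 was 134% to 196% of the sum with negative siRNA and 65.9% to 84.4% with DNMT1 siRNA, a log2 difference of -1.13 (exact permutation test, p = 0.1, adjusted p = 0.2). The Myh10 difference was -1.16. Both differences largely restate the higher marker sum, since in CPM the log2 fold changes were -0.11 for Myh9 and -0.14 for Myh10. They show no fall of these chains in themselves.

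Markers of other cells moved both ways. The fibroblast list had 3 of 8 markers lower and 0 higher (median -0.42), with log2 fold changes of -0.69 for Col1a2, -0.65 for Col1a1 and -0.64 for Dcn. Of the 6 smooth muscle markers 0 were called (median -0.47), Acta2 at -0.51 having a fold change under the limit. At an unadjusted p below 0.05 in edgeR 5 of them were lower, and DESeq2 called 1 and edgeR's exact test 2 lower. The endothelial list had 3 of 7 higher, led by Npr3 at 2.74, a receptor that endocardial cells carry, while Tek, at -0.35 (edgeR adjusted p = 0.0373), had a fold change under the limit. Of 4 tested pericyte markers 1 was called lower (Pdgfrb) and 0 higher by edgeR, although their median was 0.40, and DESeq2 called 1 higher and 1 lower. At an unadjusted p below 0.05 in edgeR 2 of them were higher and 1 lower. Of epicardial markers 1 of 6 was lower, of atrial markers 1 of 5 (Nppa, 1.65) and of ventricular markers 1 of 3 (Myl2) were higher, and of 4 macrophage markers and 1 erythroid marker 0 were called by edgeR. DESeq2 called 2 of the macrophage markers lower, as did edgeR's exact test, and 2 were lower in edgeR at an unadjusted p below 0.05. The erythroid marker was higher at that limit and was called by edgeR's exact test, not by DESeq2. The part of these lists in the heavy chain values was not tested.

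The heavy chains of skeletal muscle that were not among the 8 were scarce. Of Myh1, Myh2, Myh4, Myh8, Myh13 and Myh15, 3 passed the filter and 1 was called higher. Myh1, a fast adult skeletal chain, had 4.62, 6.83 and 5.48 CPM with negative siRNA and 14.4, 12.4 and 14.5 CPM with DNMT1 siRNA, with no overlap (log2 fold change 1.29, SE 0.17, edgeR adjusted p = 0.00322). Of its 75-base words 20.9% occur in other genes, most often in Myh2, so its value is uncertain. Myh2, another fast chain, had 8 to 26 reads with negative siRNA and 22 to 33 with DNMT1 siRNA (log2 fold change 1.58, edgeR adjusted p = 0.0568). Myh2 was below the filter level in negative siRNA replicate 1 (0.215 CPM) and passed only with the DNMT1 siRNA cultures. It was not called by the main test, but was called higher by DESeq2 (adjusted p = 0.0245), by edgeR's exact test (adjusted p = 0.0137), with no filter and without negative siRNA replicate 1 or 2. Myh8, the perinatal chain, had a log2 fold change of 0.40 (edgeR adjusted p = 0.377) and was called higher without negative siRNA replicate 2 (0.80, adjusted p = 0.0128). Myh4, Myh13 and Myh15 were below the filter. The skeletal muscle markers summed to 3.79 to 7.46 CPM with negative siRNA and 9.06 to 9.26 CPM with DNMT1 siRNA, and 2 of 9 passed the filter. Of these 0 were called by edgeR, its exact test or DESeq2, and 1 was higher at an unadjusted p below 0.05.

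Partners of the heavy chains were counted from fixed lists against the same 4.26% called higher and 2.23% called lower. Of the myosin light chains 10 of 12 were tested, and 3 were called higher and 0 lower (median 0.37). Myl1 had a log2 fold change of 3.07 from 0.209 CPM, Myl4, the atrial and embryonic essential chain, 1.11 and Myl2, the ventricular regulatory chain, 0.77. At its level with negative siRNA, Myl1 passed the filter on low counts only through the DNMT1 siRNA cultures (1.78 CPM), which favoured a higher value there. The most abundant, the nonmuscle regulatory chain Myl12a, was not called (0.12). Of 16 tested genes on a list for the thick filament 9 were called higher and 0 lower (median 1.03). The giant ruler protein Ttn rose from 203 ± 52.9 to 801 ± 111 CPM (log2 1.98), and Mybpc2 had a log2 fold change of 2.10. Mybpc2 had 0.5845 ± 0.291 CPM with negative siRNA and 2.50 ± 0.637 CPM with DNMT1 siRNA. Like Myl1, it passed the filter only through the DNMT1 siRNA cultures, which favoured a higher value there. The chaperone Hsp90ab1, the most abundant of the list, was not called (-0.19). In both lists DESeq2 and edgeR's exact test also called 0 genes lower, and at an unadjusted p below 0.05 in edgeR 6 light chains were higher and 0 lower, and 13 thick filament genes were higher and 1 lower.

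Of 19 regulators of transcription known to act on myosin genes 3 were called higher and 0 lower (median 0.15). Thrb, a thyroid hormone receptor, rose from 1.92 ± 0.520 to 6.32 ± 0.180 CPM (log2 1.73, edgeR adjusted p = 0.00286). Nkx2-5, a cardiac homeobox factor, had a log2 fold change of 0.80, and the serum response factor partner Myocd 0.59. Tead1, the most abundant, was not called (0.14). DESeq2 and edgeR's exact test also called 0 of them lower, and at an unadjusted p below 0.05 in edgeR 8 were higher and 1 lower. Of 12 regulators of nonmuscle myosin, which switch the motor through phosphorylation of its light chain or scaffold it, 0 were called by edgeR, its exact test or DESeq2 (median 0.06). At an unadjusted p below 0.05 in edgeR 3 of them were higher and 2 lower. The kinase Rock2, the most abundant, had a log2 fold change of 0.18.

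The introns of the cardiac chains carry microRNAs, short RNAs that repress transcripts with sites matching their seed (bases 2 to 8, in capitals). They are shown because 1 of their rows was called higher where its host was not called.
mmu-miR-208a-3p: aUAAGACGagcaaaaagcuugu
mmu-miR-208b-3p: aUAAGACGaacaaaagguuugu
mmu-miR-499-5p: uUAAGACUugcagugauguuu
They lie in Myh6 (chr14:54949072-54949093, minus strand), Myh7 (chr14:54975710-54975731, minus strand) and Myh7b (chr2:155622893-155622913, plus strand), by RefSeq on GRCm38.p6. The first and the second have the same seed and 19 of 22 bases in common, and the last differs from them in 1 of the 7 seed bases. Libraries of poly(A) RNA do not capture mature microRNAs, so reads on these rows are fragments of longer RNA. Mir208b had 4, 12 and 9 reads with negative siRNA and 29, 21 and 15 reads with DNMT1 siRNA, with no overlap even before the smaller DNMT1 siRNA libraries are allowed for. The log2 fold change was 2.44 (SE 0.45, edgeR adjusted p = 0.0130), and the call was lost without DNMT1 siRNA replicate 1 (adjusted p = 0.0656) or 2 (adjusted p = 0.0679). Mir208b had 0.11, 0.38 and 0.32 CPM with negative siRNA and 1.79, 1.41 and 1.13 CPM with DNMT1 siRNA. It passed the filter on low counts only through the DNMT1 siRNA cultures, which favoured a higher value there. Mir208a had 3, 3 and 4 reads with negative siRNA and 7, 1 and 0 with DNMT1 siRNA, and Mir499 had 1 read in all.

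Other rows inside or overlapping Myh7 were also called higher. Gm17428, of 93 bases on the opposite strand and in no Myh7 exon, had 6, 11 and 8 reads with negative siRNA and 17, 17 and 16 with DNMT1 siRNA (log2 fold change 2.09, edgeR adjusted p = 0.0104). With 0.16 to 0.35 CPM in negative siRNA cultures, Gm17428 also passed the filter only through the DNMT1 siRNA cultures. Mhrt, an antisense RNA of the locus described as protective of the heart, had 44, 83 and 59 reads and 93, 93 and 61 reads (log2 fold change 1.49, edgeR adjusted p = 0.0166). It shares 484 exon bases with Myh7, or 5.62% of the Myh7 exons, and since the strand setting of the counting is not given in the sources used here, reads of the pair cannot be told apart. The counts in negative siRNA replicate 2 were the highest of that treatment in each of these rows, as for Myh7. Of the 13 tested microRNA rows that lie in an intron of another gene, 3 were called higher, Mir208b among them, and 0 lower (median 0.74), and 10 were above 0. Of all tested genes 4.26% were called higher. Rows with few reads can pass the filter through a single treatment, as Mir208b did, so no conclusion is drawn from this count. Reads outside annotated exons, given above for both treatments, were also more frequent with DNMT1 siRNA, and their part in these rows was not tested.

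**Figure D5:**
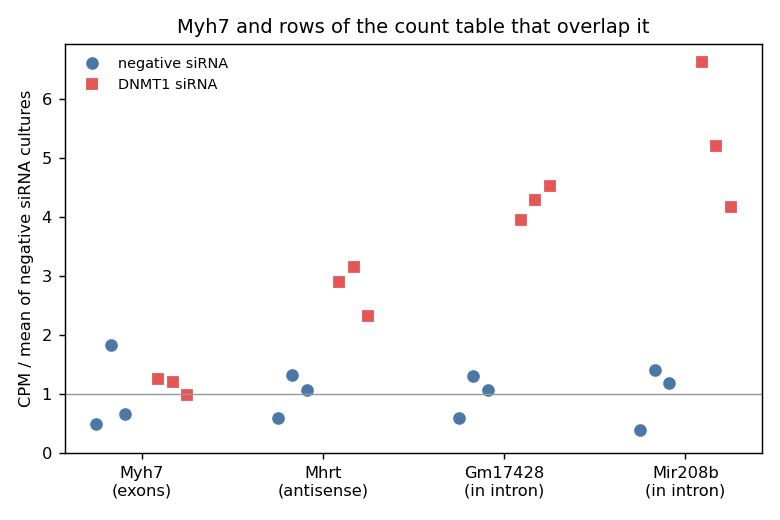
CPM relative to the mean of the negative siRNA cultures (vertical axis from 0, the grey line at 1) for Myh7 and 3 rows that overlap it, in the 3 negative siRNA (circles) and 3 DNMT1 siRNA cultures (squares). The treatments are separated for Mhrt, Gm17428 and Mir208b and overlap for Myh7. Gm17428 and Mir208b passed the filter on low counts only through the DNMT1 siRNA cultures.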

How the data were processed

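Reads of 75 bases had been cleaned by the authors with FastQC, mapped to the mouse genome (mm10, the same assembly as GRCm38) with TopHat2 and counted per Ensembl gene with HTSeq. The authors deposited raw counts, 1 file per culture, without normalization. HTSeq's summary rows were kept out of library sizes and tests. The 3 negative siRNA and 3 DNMT1 siRNA cultures were grouped by their titles.

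Counts were tested with edgeR 4.0.16 (R 4.3.3, limma 3.58.1): TMM normalization, filterByExpr (minimum count 10, minimum total 15), the quasi-likelihood F test with treatment alone, and Benjamini-Hochberg adjustment over 15470 genes. A gene was called where the FDR was below 0.05 and the fold change above 1.5 either way. CPM were counts per 1000000 reads of the TMM-scaled library. Ratios and shares used exon lengths from a GENCODE annotation of GRCm38 newer than the authors', which placed 42548 of the 43629 genes, and two-sided exact permutation tests. No pair of replicates had files that agreed within sampling noise (chi-square per degree of freedom 2.89 to 59.7). The fit was tested on simulated data. Alternatives were DESeq2 1.42.0, edgeR's exact test, other normalizations, no filter, a replicate block, other lengths and leaving out each culture. The level relative to summed cardiomyocyte markers was added after the data were seen.

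The 8 genes, the lists and the tests were chosen with earlier results of these data known. Named were the 8 genes, the other 6 heavy chains, from each list at most 3 called genes of largest change and the most abundant, and the 5 genes most correlated with Myh6 and with Myh7. Genes overlapping the heavy chains, and microRNAs in their introns, were named after their values were seen, as were Tnnt2, Tnni1, Acta2, Tek and Pdgfrb.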

Additional observations from a re-analysis of the deposited data

How the results depend on the processing

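Myh6 was called higher in all 12 alternative fits, with log2 fold changes of 1.23 to 1.56 and adjusted p up to 0.0246. The log2 fold change of Myh7 was -0.12 without negative siRNA replicate 1 and -0.02 (-0.0178) without negative siRNA replicate 3, and that of Myh7b was -0.16 without negative siRNA replicate 1, against 0.99 in both without negative siRNA replicate 2, where both were called higher. Myh11 was called lower with no filter (-1.53, adjusted p = 1.24e-17) and without negative siRNA replicate 1 (-1.90, adjusted p = 0.0440), while it was -0.36 (adjusted p = 0.275) without negative siRNA replicate 2. With no filter the SE of Myh11 was 0.17, against 0.60 in the main fit, and that of Myh7 0.09, against 0.42. The adjusted p of Myh11 with no filter therefore does not measure the spread between its cultures. Of the 8 heavy chains, 2 were called higher with DESeq2, edgeR's exact test, no filter or the replicate block, and 1 to 4 when 1 culture was left out. With no filter 1 was called lower, and 0 to 1 when 1 culture was left out. Of all genes 659 were called higher and 345 lower, against 994 and 701 with no filter, which tested 31775 genes, and 255 to 823 and 112 to 472 when 1 culture was left out. The cause of these differences was not tested. The log2 difference of the Myh6 to Myh7 ratio was 0.50 to 1.31 when 1 culture was left out, and by construction unchanged by the choice of length. Cultures with the same replicate number did not deviate together (correlations 0.01, -0.02 and 0.03). With 3 cultures per treatment this cannot exclude that the numbers pair them. With the replicate block 513 genes were called higher and 285 lower, Dnmt1 had an adjusted p of 0.000976, Myh14 was called higher (adjusted p = 0.0457), and the ratio had an exact sign-flip p of 0.25, the smallest that 3 pairs allow. Myh3, Mir208a and Mir499 had too few reads to be tested.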
